A study of Homo sapiens with 6 samples.

Results

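Desmosome genes were followed in MCF10CA1a cells, a malignant human breast epithelial line of the MCF10A lineage, grown on a soft or a stiff gel. The 9 genes were chosen by symbol as the desmosomal cadherins DSG2, DSG3, DSC2 and DSC3, the cytolinker DSP, plakoglobin (JUP) and the plakophilins PKP1, PKP2 and PKP3. All 9 were among the 26484 genes of the deposited tables. Of these, 8 passed the filter on low counts that left 11517 genes for testing, and PKP1 was at 0 counts in every library. RNA sequencing was done on 6 libraries, 3 from 500 Pa gels and 3 from 8000 Pa gels, numbered 1 to 3 at each stiffness. Both groups were the same single cell line on gels coated with growth factor-reduced Matrigel at 0.14 mg/ml, were given fresh medium on day 4 and were lysed in TRIzol on day 5. Cytosolic is the RNA fraction named in the labels. They call the replicates biological but do not say what separated them, so p-values measure the spread between these libraries only.

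Desmosomes are adhesive junctions that join the keratin filaments of neighbouring epithelial cells. Desmogleins and desmocollins are cadherins that bridge the gap between the cells, plakoglobin and the plakophilins bind their tails inside the cell, and desmoplakin ties that plaque to keratin. DSG2 and DSC2 are the widely expressed cadherin isoforms, whereas DSG3 and DSC3 are typical of basal layers and DSG1 and DSC1 of the upper layers of stratified epithelium.

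The cells expressed the broad isoforms DSG2, DSC2 and PKP2 together with the basal isoforms DSG3 and DSC3, with JUP above all other members in every library. No member passed the test between 8000 Pa and 500 Pa, either without or with the replicate number as a block. The members instead differed between libraries of the same stiffness: 5 of the 8 tested were highest in 8000 Pa replicate 1, where 30.5% of all genes were highest, and the 2 with GC-rich transcripts, JUP and PKP3, were lowest there, a share below the 33.3% of all genes. Values are given as CPM, counts scaled to the library total and by the TMM method, as mean ± SD over 3 libraries.

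The library totals ran from 8305601 to 18779742 counts. Among the libraries 8000 Pa replicate 1 stood apart, at -64.0 on a first principal component that held 47.5% of the variance, against 50.6 for 500 Pa replicate 3 and 36.3 for 8000 Pa replicate 3. The mean GC content of the transcripts, weighted by counts, was 49.7% in 8000 Pa replicate 1 and 51.3% to 53.1% in the other 5 libraries. Epithelial markers were expressed, with KRT8 at 11249 ± 3609 CPM on soft and 9061 ± 3224 CPM on stiff gels. The epithelial adhesion molecule EPCAM was at 220.4 ± 85.8 and 252 ± 88.9 CPM. Both are from a list of 7 epithelial markers, of which MUC1 was the lowest, at 3.57 ± 3.47 and 3.26 ± 1.82 CPM. In bulk RNA, fewer cells of a type and less RNA per cell cannot be told apart.

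The 4 cadherin members lie in a cluster on chromosome 18 (GRCh38) that spans 559 kb. In the order of the chromosome it holds DSC3 (30990008 to 31042815), DSC2 (31058840 to 31102522), DSC1, DSG1, DSG4, DSG3 (31447795 to 31478702) and DSG2 (31498043 to 31549008). DSC1, DSG1 and DSG4, which sit in the middle, were at 0 counts in all 6 libraries, while the genes at both ends were expressed. The next genes beyond DSG2 were nearly silent, with TTR at 1 count and B4GALT6 at 22 counts over all libraries. The antisense genes that overlap DSG2 and DSC2 had 1 count (DSG2-AS1) and 4 counts (DSCAS) over the 6 libraries.

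RefSeq promoter windows (GRCh38.p14, 250 bases before to 50 after the start) were found for 7 of the 9 members, not for PKP2 and PKP3. The first 100 bases of the windows of the 4 expressed cadherins are shown because these neighbours in one cluster were expressed on either side of 3 silent genes, and that of PKP1 because it gave no reads. Capitals mark the GC box GGGCGG and the E-box CAGGTG, each searched on both strands.
DSG2, chr18:31497927-31498026, plus strand: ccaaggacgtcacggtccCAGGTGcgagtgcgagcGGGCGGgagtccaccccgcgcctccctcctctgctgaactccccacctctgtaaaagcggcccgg
DSG3, chr18:31447491-31447590, plus strand: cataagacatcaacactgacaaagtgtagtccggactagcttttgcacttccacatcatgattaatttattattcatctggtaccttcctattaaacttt
DSC2, chr18:31102572-31102671, minus strand: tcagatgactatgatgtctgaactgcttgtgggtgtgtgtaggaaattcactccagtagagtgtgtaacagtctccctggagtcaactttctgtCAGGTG
DSC3, chr18:31042893-31042992, minus strand: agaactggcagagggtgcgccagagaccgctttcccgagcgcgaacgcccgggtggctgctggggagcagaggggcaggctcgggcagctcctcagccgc
PKP1, chr1:201283256-201283355, plus strand: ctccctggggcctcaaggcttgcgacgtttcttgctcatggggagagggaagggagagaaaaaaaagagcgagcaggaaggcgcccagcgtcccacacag
The 250 bases before the start held 75.2% GC in DSG2, 42.8% in DSG3, 59.6% in DSC2, 60.4% in DSC3 and 67.6% in PKP1, against a median of 58.0% over 35116 windows. In the whole 300-base window the GC box was found 2 times in DSG2, 1 time in DSC2 and in PKP1, 3 times in JUP, 8 times in DSP, counting overlapping matches, and 0 times in DSG3 and DSC3. It was present in 45.0% of all windows. The E-box occurred 2 times in DSG2 and in DSP and 1 time in DSC2 and was present in 20.6% of all windows. DSC2 and JUP each have a second RefSeq window, which is not counted here. The letters AACNGGTT, a Grainyhead-type site, were found in no member's window (0 hits) and in 1.73% of all windows.

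Levels can be compared between genes only per length, here as CPM per kilobase of merged exons. JUP was at 164 ± 51.8 (SD over all 6 libraries), between 79.5 and 242. DSG2 followed at 10.9 ± 3.38 and DSP at 6.31 ± 2.71, and these 3 genes held the ranks 1, 2 and 3 in all 6 libraries. The next 4 genes did not separate. DSG3 was at 3.94 ± 2.59, DSC2 at 3.43 ± 1.36, PKP2 at 2.83 ± 0.830 and DSC3 at 2.70 ± 1.68, and DSG3 was above DSC2 in only 3 of 6 libraries. PKP3 came last of the detected members by its mean, at 1.82 ± 0.499, and DSC3 was above it in 4 of 6 libraries. The order from rank 4 to rank 6 depends on the gene model: with the length of the longest annotated transcript, PKP2 moved to 4.64 and to rank 4.

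**Figure D1:**
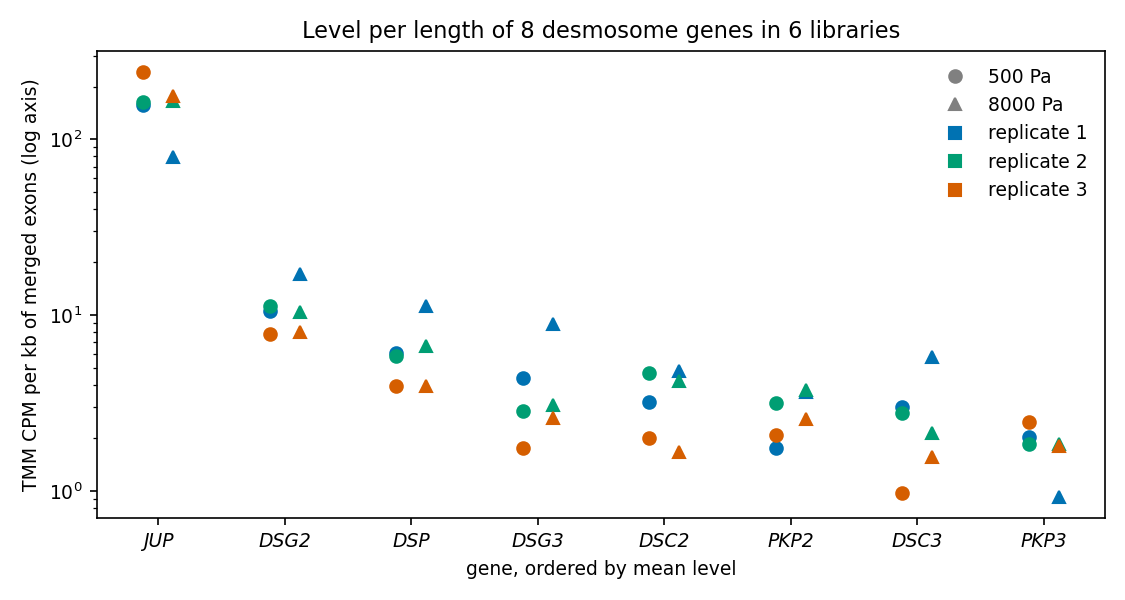
Level of the 8 detected desmosome genes in each library, in CPM per kilobase of merged exons on a log axis, with genes ordered by their mean. Circles are 500 Pa and triangles 8000 Pa libraries, and colours give the replicate number. JUP lies above all other genes in every library, and the triangles of 8000 Pa replicate 1 are the highest for DSG2, DSG3, DSC2, DSC3 and DSP and the lowest for JUP and PKP3.

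PKP1, the plakophilin of stratified epithelia such as epidermis, was not detected among 65780332 counts. A count of 0 allows up to 3 counts, which over the 3 libraries of a group equals 0.0887 CPM at 500 Pa and 0.0937 CPM at 8000 Pa, for counting error only. The plakophilin transcripts detected were PKP2, found in simple and many stratified epithelia and in heart, and PKP3, which is broad in epithelia. The 9 genes together took 0.0959% to 0.112% of counts in the 8000 Pa libraries and 0.0960% to 0.114% in the 500 Pa libraries, and JUP alone gave 75.5% of these counts. Without JUP the share was 0.0221%, 0.0264% and 0.0130% in 500 Pa replicates 1, 2 and 3, and 0.0484%, 0.0260% and 0.0150% in the 8000 Pa replicates. The largest share of the other members was therefore in 8000 Pa replicate 1, and the smallest shares were in both replicate 3 libraries.

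The question put to the 2 groups was whether desmosome transcripts depend on the stiffness under the cells. All 11517 genes were fitted together by edgeR's quasi-likelihood test, and a gene passed at a Benjamini-Hochberg FDR of 0.05. The unpaired fit, with stiffness alone, called 0 of the 8 tested members, where it called 0% of all genes, and 0 members had an unadjusted p under 0.05 against 2.45% of all genes. The paired fit, with the replicate number as a block, also called 0 of 8, where it called 0.53% of all genes. In that fit 2 members, DSG3 and PKP2, had an unadjusted p under 0.05, against 10.6% of all genes, and both lay above 0, where 4.49% of all genes had such a p and a value above 0. DESeq2, without and with the block, and limma-voom called 0 members as well. Of the 8 tested members 6 had an unpaired log2 fold change above 0, as had 51.2% of all genes, and the members' median was 0.36 beside 0.01 for all genes tested. Since the 95% interval of each of the 8 unpaired fold changes reached a 1.5-fold difference in the direction of its estimate, the fit does not show that stiffness leaves these genes alike.

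**Figure D2:**
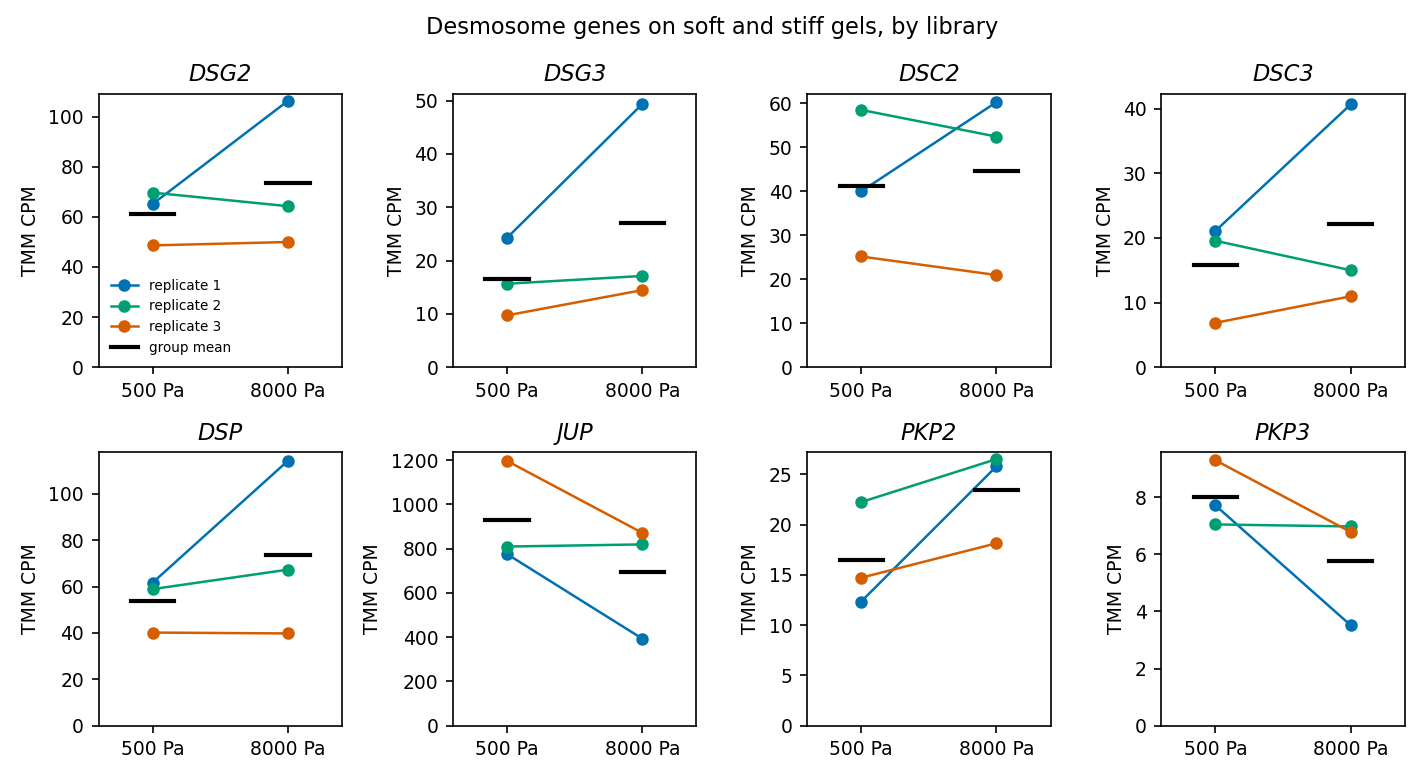
TMM-scaled CPM of the 8 tested desmosome genes in each library at 500 Pa and 8000 Pa, on axes that start at 0. Lines join libraries of the same replicate number and black bars are group means. The line of replicate 1 rises steeply for DSG2, DSG3, DSC2, DSC3 and DSP and for PKP2 and falls for JUP and PKP3, while the log2 ratios of replicate 2 stay between -0.38 and 0.25.

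Among the desmogleins, DSG2 was at 65.2, 69.6 and 48.6 CPM in 500 Pa replicates 1, 2 and 3, and at 106, 64.2 and 49.9 CPM in the 8000 Pa replicates. The 8000 Pa library of replicate 1 was high, and the other 8000 Pa libraries lay within the range of the 500 Pa ones. The means were 73.5 ± 29.3 and 61.1 ± 11.1 CPM (n = 3 each), and the unpaired log2 fold change was 0.27 (SE 0.32, 95% interval -0.42 to 0.95, adjusted p = 1.00 by edgeR). In the paired fit it was 0.21 (SE 0.24, adjusted p = 0.843), and without 8000 Pa replicate 1 the unpaired value was -0.10.

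DSG3, the basal-layer desmoglein and the main target of autoantibodies in pemphigus vulgaris, was at 24.3, 15.7 and 9.72 CPM on soft and 49.4, 17.1 and 14.5 CPM on stiff gels. It was higher at 8000 Pa in 3 of 3 same-numbered pairs, with log2 ratios of 1.02, 0.13 and 0.57, yet the groups overlapped because replicates 2 and 3 were low at both stiffnesses. Its unpaired log2 fold change was 0.70 (SE 0.48, 95% interval -0.34 to 1.73, adjusted p = 1.00 by edgeR). The paired value was 0.59 (SE 0.28, 95% interval 0.05 to 1.13, unadjusted p = 0.0325, adjusted p = 0.415). This was the largest unpaired fold change of the 8, and it was -0.081 without 8000 Pa replicate 1.

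The desmocollin DSC2, whose mutation can cause arrhythmogenic cardiomyopathy, was at 40.0, 58.5 and 25.2 CPM on soft and 60.2, 52.4 and 20.9 CPM on stiff gels. Replicate 3 was the low number at both stiffnesses, and 1 of 3 pairs was higher at 8000 Pa. The log2 fold change was 0.11 (SE 0.41, 95% interval -0.77 to 0.99) unpaired and 0.07 (SE 0.25) paired. It was -0.17 without 8000 Pa replicate 1, -0.085 without 500 Pa replicate 3 and -0.020 without 8000 Pa replicate 2.

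DSC3, the basal desmocollin, was at 21.1, 19.6 and 6.86 CPM on soft and 40.7, 15.002 and 10.97 CPM on stiff gels. It had the widest spread between libraries of the same stiffness among the members, 3.71-fold at 8000 Pa and 3.07-fold at 500 Pa, and its pairs pointed both ways (log2 ratios of 0.95, -0.38 and 0.67). The unpaired log2 fold change of 0.48 (SE 0.51, 95% interval -0.62 to 1.59) became -0.30 without 8000 Pa replicate 1. The paired value was 0.42 (SE 0.29, adjusted p = 0.665 by edgeR), and it was 0.12 without replicate 1.

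The balance of basal to broad isoforms was compared within each library, where scaling between libraries plays no part. The log2 ratio of DSG3 to DSG2 counts was -1.42, -2.15 and -2.31 on soft and -1.11, -1.90 and -1.79 on stiff gels, so that replicate 1 had the most DSG3 relative to DSG2 at both stiffnesses. The difference of 0.36 between the group means was within the spread of the replicates (two-sided exact permutation p = 0.4, n = 3 each, where 3 against 3 cannot go below 0.1), and it was 0.12 without 8000 Pa replicate 1. Within the same-numbered pairs the ratio was higher at 8000 Pa in 3 of 3, by 0.32, 0.25 and 0.53 (two-sided exact sign-flip permutation p = 0.25, the smallest that 3 pairs allow). DSC3 to DSC2 was at -0.92, -1.58 and -1.86 on soft and -0.57, -1.80 and -0.93 on stiff gels, again highest in replicate 1, with a difference of 0.36 (two-sided exact permutation p = 0.5) that was 0.089 without 8000 Pa replicate 1. Its pairs pointed both ways, at 0.36, -0.22 and 0.93. Per length DSG2 was above DSG3 in all 6 libraries, whereas DSC3 was above DSC2 in 8000 Pa replicate 1, at 5.76 against 4.82 CPM per kilobase, and below it in the other 5.

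In the plaque, DSP, the desmoplakin that anchors keratin, was at 61.7, 58.9 and 40.2 CPM on soft and 114, 67.3 and 39.8 CPM on stiff gels. The value of 8000 Pa replicate 1 stood above all others, and replicate 3 was the lowest at both stiffnesses. The log2 fold change was 0.46 (SE 0.36, 95% interval -0.32 to 1.24) unpaired, 0.36 (SE 0.24, adjusted p = 0.643 by edgeR) paired and -0.0048 without 8000 Pa replicate 1.

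JUP, plakoglobin, is shared between desmosomes and adherens junctions and is a close relative of beta-catenin. It was at 775, 809 and 1196 CPM on soft and 393, 819 and 871 CPM on stiff gels. The highest value was in 500 Pa replicate 3 and the lowest in 8000 Pa replicate 1, where the 4 cadherins were highest, and the groups overlapped. The means were 927 ± 234 on soft and 694 ± 262 CPM on stiff gels, and the log2 fold change was -0.42 (SE 0.32, 95% interval -1.11 to 0.27) unpaired and -0.47 (SE 0.24, adjusted p = 0.484 by edgeR) paired. Without 8000 Pa replicate 1 it was -0.13.

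PKP2, a plakophilin of the plaque that is often mutated in arrhythmogenic cardiomyopathy, was at 12.3, 22.2 and 14.7 CPM on soft and 25.8, 26.5 and 18.1 CPM on stiff gels. It was higher at 8000 Pa in 3 of 3 pairs, with log2 ratios of 1.06, 0.25 and 0.30, though 500 Pa replicate 2 lay above 8000 Pa replicate 3. The log2 fold change was 0.52 (SE 0.34, 95% interval -0.22 to 1.25, adjusted p = 1.00 by edgeR) unpaired. The paired value was 0.54 (SE 0.28, unadjusted p = 0.0493, adjusted p = 0.468). Of the 6 members above 0 it was the only one that stayed above 0 without 8000 Pa replicate 1, at 0.445, and it did so under each of the 18 alternatives run.

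PKP3, the remaining plakophilin, was the least abundant detected member, at 7.71, 7.04 and 9.29 CPM on soft and 3.51, 6.97 and 6.78 CPM on stiff gels. Its groups did not overlap, which made it 1 of 8 members lower at 8000 Pa without overlap, against 2.85% of all genes (6.87% in either direction). The gap was narrow, with 66 counts in 8000 Pa replicate 2 beside 63 counts in the shallower 500 Pa replicate 2. The log2 fold change was -0.48 (SE 0.40, 95% interval -1.33 to 0.38) unpaired, -0.53 (SE 0.36, adjusted p = 0.662 by edgeR) paired and -0.217 unpaired without 8000 Pa replicate 1. The log2 ratio of PKP3 to PKP2 counts was -0.68, -1.65 and -0.66 on soft and -2.86, -1.92 and -1.41 on stiff gels. Its difference was -1.07, with overlapping groups by 500 Pa replicate 2 (two-sided exact permutation p = 0.2, and 0.5 after Benjamini-Hochberg adjustment for each of the 3 ratios), and -0.67 without 8000 Pa replicate 1. It was lower at 8000 Pa in 3 of 3 pairs, by -2.18, -0.27 and -0.75 (two-sided exact sign-flip permutation p = 0.25, and 0.375 after adjustment over the 3 ratios). The transcripts of PKP3 and PKP2 differ in GC content, at 66.7% and 46.6%, and with an offset for it the paired fold changes were -0.11 and 0.42. No ratio to PKP1 was formed.

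**Figure D3:**
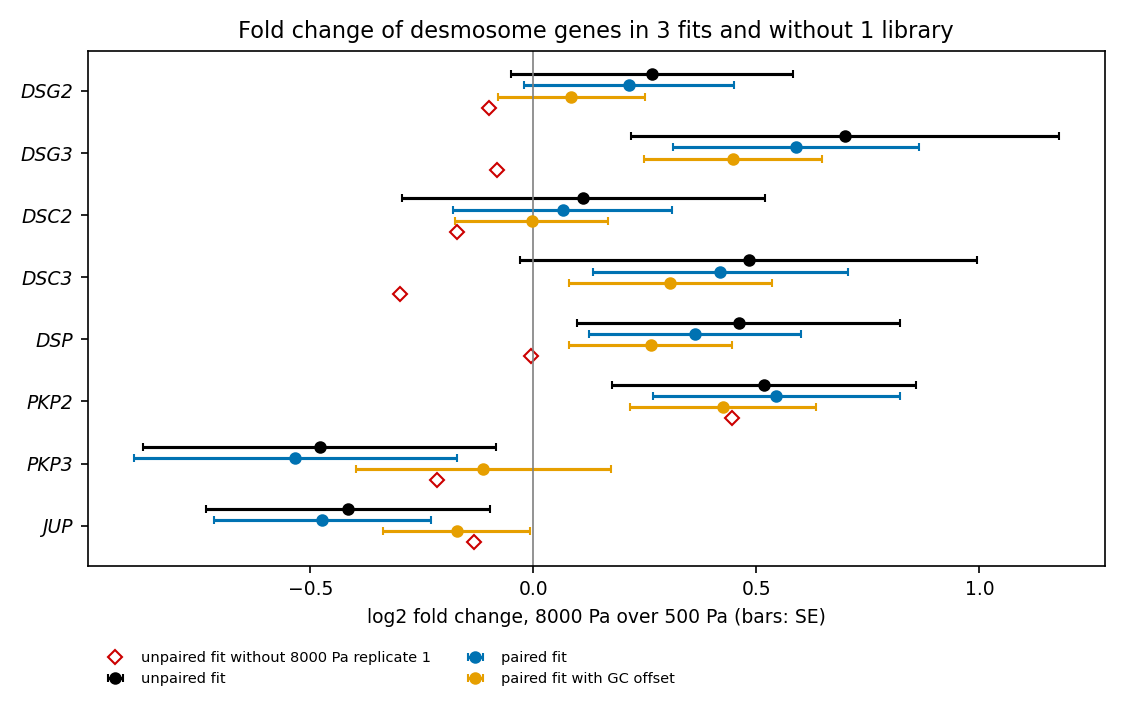
Log2 fold change of 8000 Pa over 500 Pa for the 8 tested desmosome genes in the unpaired fit, the paired fit and the paired fit with an offset for GC content, with bars for the SE. Open diamonds give the unpaired value without 8000 Pa replicate 1. Without that library the values of DSG2, DSG3, DSC2, DSC3 and DSP fall below 0, and PKP2 stays at 0.445.

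Across libraries most members followed 1 of 2 opposite patterns, which the choice of genes did not use. DSG2, DSG3, DSC2, DSC3 and DSP, 5 of 8, were highest in 8000 Pa replicate 1, where 30.5% of all tested genes had their highest value. JUP and PKP3, 2 of 8, were lowest there, as were 33.3% of all genes, and highest in 500 Pa replicate 3, as were 23% of all genes. PKP2 went with neither, highest in 8000 Pa replicate 2 and lowest in 500 Pa replicate 1. DSG2, DSG3 and DSC3 were lowest in 500 Pa replicate 3 and DSC2 and DSP in 8000 Pa replicate 3, where 24.3% and 18.7% of all genes were lowest. Within 8000 Pa the highest library exceeded the lowest by more than 2-fold for 6 of 8 members, against 41.2% of all genes, and within 500 Pa for 3 of 8, against 28%. Leaving out 8000 Pa replicate 1 turned 5 of the 6 unpaired fold changes above 0 to below 0. These 5 were the members with their highest value in that library, and the share of all genes that turned was not counted. Higher values in all 3 pairs were seen for 2 of 8 members (DSG3 and PKP2), against 14.6% of all genes. Lower values in all 3 pairs were seen for 1 of 8 (PKP3), against 15.2%.

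Transcript GC content went with these patterns. The 6 members with fold changes above 0 had transcripts of 38.9% to 47.9% GC, whereas JUP had 61.5% and PKP3 66.7%. In the pair of replicate 1 the log2 ratio of all genes ran against GC content (Spearman rho = -0.60 across 11003 genes). Genes are not independent replicates. In the pairs of replicates 2 and 3 rho was 0.06 and 0.02, but rho can miss a curved trend. In the pair of replicate 3 the median log2 ratio was -0.28 at 30% to 35% GC, 0.18 at 45% to 50% and -0.23 at 65% to 70%. In the pair of replicate 1 it was 0.43 for the 2453 genes of 40% to 45% GC and -0.83 for the 1137 genes of 60% to 65% GC. All 8 members lay farther from 0 than the median of their own GC bin in that pair and on the same side, for example DSG3 at 1.02 and JUP at -0.98. In the pairs of replicates 2 and 3 that held for 4 and 5 of the 8. The share of all genes beyond the median of their bin was not counted, but a median leaves as many genes beyond it as short of it. With an offset for GC content in each library, the size of the unpaired fold change was smaller for 8 of 8 members. The share of all genes for which it was smaller was not counted. The offset is fitted to take out the GC trend of these same libraries. The paired fit with this offset gave 0.45 (SE 0.20, adjusted p = 0.382 by edgeR) for DSG3 and 0.42 (SE 0.21, adjusted p = 0.432) for PKP2. JUP was then at -0.17 and PKP3 at -0.11, and 0 of 8 members passed, against 0.59% of all genes. Only DSG3 had an unadjusted p under 0.05 there (1 of 8, against 11.9% of all genes).

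**Figure D4:**
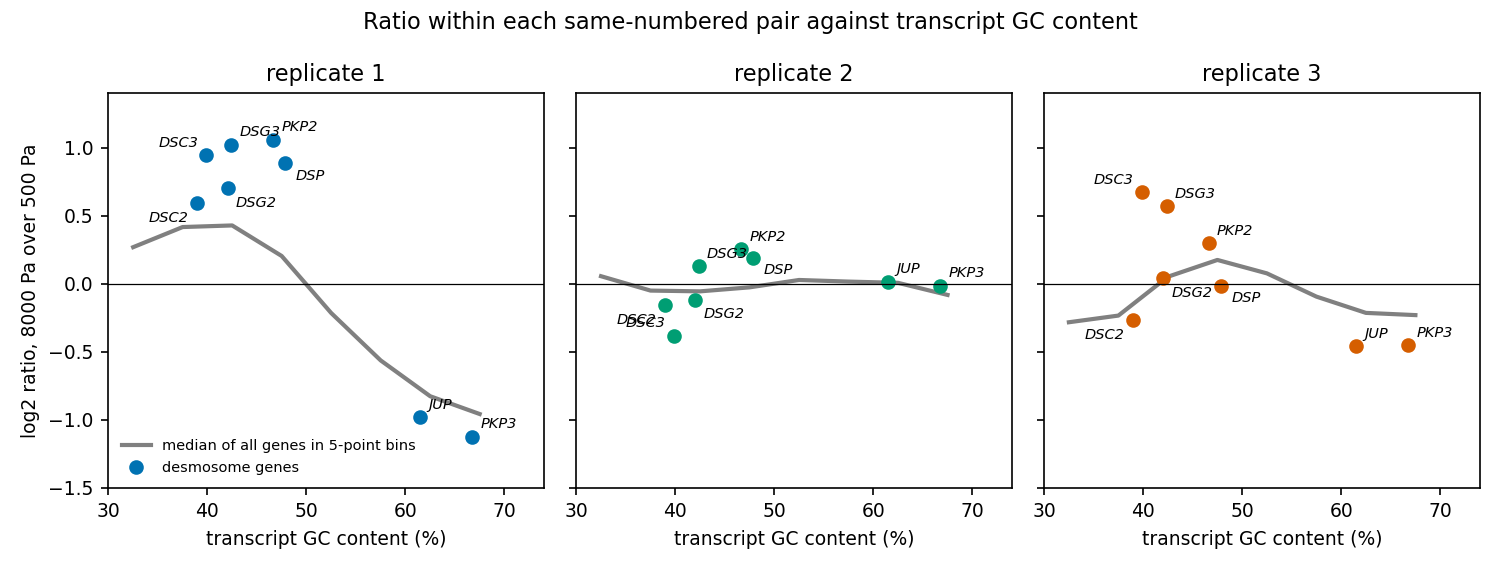
Log2 ratio of 8000 Pa over 500 Pa for the 8 tested desmosome genes within each same-numbered pair, against the GC content of the longest annotated transcript. The grey line is the median of all tested genes in bins of 5 percentage points. In replicate 1 the line falls from 0.43 to -0.96 and the members lie beyond it on the same side, while in replicates 2 and 3 it stays between -0.28 and 0.18. A median leaves as many genes beyond it as short of it.

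Of 6 further desmosomal genes, 2 were abundant enough to test. DSG1, DSG4 and DSC1, the cadherins of upper epidermal layers and hair, had 0 counts, and CDSN, an adhesive protein of cornified cells, had 18 counts over the 6 libraries. PERP, a tetraspan membrane protein needed for desmosome assembly, was at 461 ± 131 CPM on soft and 502 ± 109 CPM on stiff gels (unpaired adjusted p = 1.00 by edgeR at a log2 fold change of 0.12). PKP4, a relative of the plakophilins, was at 11.7 ± 3.74 and 14.8 ± 3.01 CPM. Neither passed in the unpaired or the paired fit.

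Keratins form the filaments that desmosomes anchor. All 11 tested keratins had a log2 fold change below 0 in the unpaired fit, as had 48.8% of all genes, with a median of -0.36. None passed in either fit (0 of 11 by edgeR), and 4 had an unadjusted p under 0.05 in each, against 2.45% of all genes unpaired and 10.6% paired. KRT17 was at 2249 ± 1001 CPM on soft and 1210 ± 386 CPM on stiff gels and KRT16, a keratin of stressed epithelium, at 207 ± 103 and 113 ± 33.6 CPM. Their median in the 3 pairs was -0.92, -0.00043 and -0.31, and their median GC content was 56.8%. With the GC offset the list median was -0.22 unpaired and KRT19, a keratin of simple epithelia, was above 0 at 0.17. Whether keratins and desmosome genes differ in their response was not tested.

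Hemidesmosomes anchor the same filaments to the matrix. Of their 6 tested genes 3 were above and 3 below 0, with a median of 0.06 and 0 passing in either fit. The integrin ITGB4 was at 724 ± 82.9 on soft and 505 ± 204 CPM on stiff gels, and the transmembrane collagen COL17A1 at 4.39 ± 1.88 and 7.30 ± 1.31 CPM. Of the plakins of the cornified envelope, periplakin (PPL) was at 82.4 ± 37.6 and 98.1 ± 31.9 CPM and envoplakin (EVPL) at 13.2 ± 4.12 and 13.7 ± 4.50 CPM, and neither passed.

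In the adherens junction, the actin-linked neighbour of the desmosome, 0 of 11 tested genes passed in either fit, 7 were above 0 and the median was 0.08. The E-cadherin gene CDH1 was at 300 ± 67.5 CPM on soft and 407 ± 19.2 CPM on stiff gels, without overlap of the groups, a pattern found in 4.02% of all genes (unpaired adjusted p = 1.00 by edgeR at a log2 fold change of 0.44, SE 0.25). CTNNA1, alpha-catenin, was at 708 ± 97.2 and 855 ± 60.7 CPM.

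Of 17 tested kinases, proteases, traffic proteins and transcription factors tied to desmosomes, 0 passed unpaired and 1 passed paired, against 0.26% of all genes called higher there. It was GRHL3, a Grainyhead-family transcription factor of epithelial barrier formation. GRHL3 was at 3.13, 7.27 and 6.57 CPM on soft and 11.5, 16.3 and 14.4 CPM on stiff gels, so that every stiff library lay above every soft one. That pattern was found in 4.02% of all genes. RHOA, of the same list, was lower at 8000 Pa without overlap, as were 2.85% of all genes. GRHL3 rose in the paired fit, with a log2 fold change of 1.39 (SE 0.33, adjusted p = 0.0107 by edgeR), and had 1.33 (SE 0.40, adjusted p = 1.00) unpaired. Its log2 ratios of 1.86, 1.16 and 1.12 in the 3 pairs were above 0 in 3 of 3. It did not pass when any 1 pair was left out (adjusted p = 0.115, 0.0751 and 0.181 by edgeR without replicates 1, 2 and 3). The related GRHL1 and GRHL2, given as values, were at 57.2 ± 28.4 and 43.3 ± 7.69 CPM on stiff and 48.0 ± 16.03 and 37.2 ± 17.2 CPM on soft gels. The median of the 17 genes was 0.22 unpaired.

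**Figure D5:**
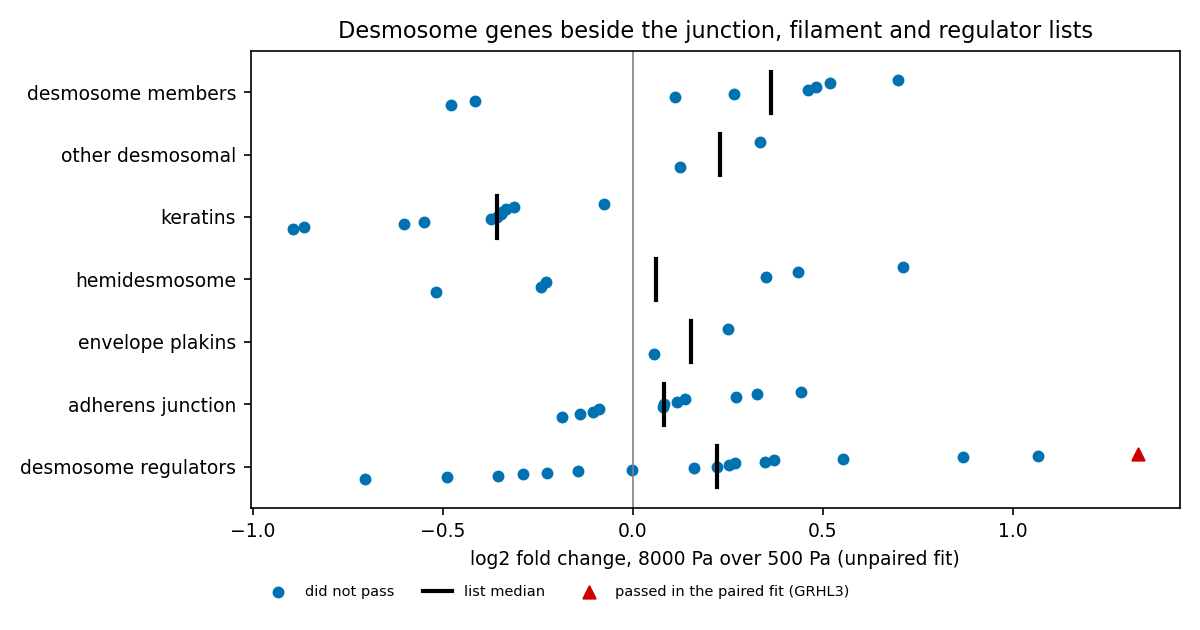
Unpaired log2 fold change of every tested gene in the desmosome list and 6 related lists, 1 point per gene, with the list median as a black bar. Desmosome members lie on both sides of 0, all 11 keratins lie below it (10 with the GC offset), and GRHL3 (triangle) is the 1 gene shown that passed in the paired fit.

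The genes whose profile over the 6 libraries lay nearest to the mean profile of the 8 tested members were NCBP1, ATL3, DCTN4, BCL10 and SRSF3. They were ranked among 7049 genes of at least 10 CPM by root mean square distance of centred log2 CPM, which was 0.04 to 0.05. Among the members themselves the distance to that mean ran from 0.13 for DSG2 to 0.74 for JUP. NCBP1, a cap-binding protein, was at 112, 120 and 81.0 CPM on soft and 142, 109 and 83.1 CPM on stiff gels, high in 8000 Pa replicate 1 and low in both replicate 3 libraries. The 5 nearest genes had transcripts of 39.3% to 41.8% GC. In the pair of replicate 1 the median log2 ratio of all genes was 0.42 at 35% to 40% GC and 0.43 at 40% to 45%. The part of GC content in the match was not tested.

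Markers of other cells were low or absent, apart from the endothelial marker PECAM1. Of 5 cardiac markers, from a tissue rich in desmosomes, 3 were at 0 (MYH6, MYH7 and ACTN2), TNNT2 had 1 count and DES had 6. Of 7 fibroblast markers 4 were at 0, with a summed level of 0.950 to 1.86 CPM on soft and 0.959 to 4.65 CPM on stiff gels, and COL1A1 at 1.197 ± 0.678 and 2.15 ± 1.48 CPM. Of the leukocyte markers, PTPRC and CD3E were at 0, with CD14 at 8.98 ± 2.28 and 13.6 ± 6.34 CPM and LYZ at 3.19 ± 0.972 and 4.38 ± 1.81 CPM. Of 6 endothelial markers TEK was at 0, VWF had 7 counts and KDR 9 over all libraries, and ESAM was at 5.98 ± 1.68 CPM on soft and 6.14 ± 2.09 CPM on stiff gels. The list summed to 100.2 to 156 CPM on soft and 213 to 258 CPM on stiff gels. In the paired fit PECAM1 rose from 111 ± 30.4 to 219 ± 19.7 CPM (adjusted p = 0.00537 by edgeR) and CDH5 from 2.58 ± 1.27 to 10.4 ± 5.72 CPM (adjusted p = 3.14e-04). These were 2 of the 3 tested endothelial markers, against 0.26% of all genes called higher there. Neither passed in the unpaired fit (adjusted p = 1.00 by edgeR) or in the paired fit without replicate 3 (adjusted p = 0.812 and 0.181). Their part in the desmosome values was not tested.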

How the data were processed

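RNA from 6 libraries was analysed, grouped by the stiffness in the titles. The deposited raw counts are whole reads per gene symbol. The tools HISAT2 2.1.2, HTSeq 0.11.4, limma and DESeq2 and the build GRCh38 are listed per the submitters' processing notes. Strandedness, annotation release and multi-mapping were not given in the sources used here. Per gene, the deposited log2 values are the authors' TMM-scaled expression per the file headers. For the 8 detected members these 48 values differed from the log2 CPM computed here by at most 0.1. Value columns belonging to no sample numbered 0.

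The tests used edgeR 4.0.16 under R 4.3.3 on these counts. The filter on low counts was filterByExpr (minimum count 10, minimum total 15), scaling was by TMM, and p-values were adjusted over all 11517 genes. DESeq2 1.42.0 and limma 3.58.1 served as alternatives. Ratios within pairs were taken on log2 values with 0.5 counts added. The GC offset is a lowess curve (span 0.3) of each library's deviation from the gene mean against the GC content of the longest GENCODE 29 transcript, known for 95.5% of tested genes. Exon lengths and coordinates are also from GENCODE 29 on GRCh38. The replicate numbers were taken to pair the samples because deviations from the group means correlated at 0.391, 0.171 and 0.483 across genes for numbers 1, 2 and 3, each above 0.1. Among different numbers the values ran from -0.473 to 0.187, the highest (500 Pa replicate 2 with 8000 Pa replicate 1) above that of number 2. This rests on the labels' numbers and that check, not on a stated shared day. No libraries agreed within sampling noise (chi-square per degree of freedom at least 11.7). The 9 genes were given, and the lists were chosen with earlier results of these data known. The rule for naming genes takes all 9 members and all other desmosomal genes. From each further list it takes passing members or, failing these, up to 2 of smallest p as values, and it adds the 5 nearest profiles. GRHL1, GRHL2, RHOA, KRT8, KRT19, MUC1, ESAM and EPCAM, and genes given only by a count or in the closing section, were chosen after their values were seen. In shares of counts, 95% intervals are exact binomial and cover counting error only: the share of the 9 genes was 0.0960% (0.0946% to 0.0974%) in 500 Pa replicate 1. Of the steps, only the unpaired and paired edgeR fits were tested on simulated counts with known changes. For 1 marker gene the value is not reported here.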

Additional observations from a re-analysis of the deposited data

How the results depend on the processing

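No desmosome member passed under any of the 18 alternatives to the unpaired fit (0 called in each), and the smallest adjusted p by edgeR was 0.260, for DSG3 with the replicate block and without replicate 2. JUP, PKP2 and PKP3 kept the sign of their fold change in all 18. DSG3, DSC3 and DSP kept theirs in 17 of the 18, DSG2 in 16 and DSC2 in 12. The GC offset gave DSC2 -0.016 unpaired and -0.0042 with the replicate block. With libraries or pairs left out in turn the log2 fold change ran from -0.10 to 0.52 for DSG2, -0.081 to 1.13 for DSG3, -0.19 to 0.49 for DSC2, -0.30 to 0.86 for DSC3 and -0.0048 to 0.80 for DSP. Without 8000 Pa replicate 1 the values were -0.10, -0.081, -0.17, -0.30 and -0.0048. With the replicate block and without replicate 1 they were -0.020 for DSG2 and -0.19 for DSC2, but 0.36 for DSG3, 0.12 for DSC3 and 0.11 for DSP. The cause was not tested. Library size alone moved the median of all genes to 0.17. Over all genes the count called, 0 in the unpaired fit, was 61 with the replicate block, 7 with DESeq2, 42 with DESeq2 and the replicate block, 8 without a filter on low counts and 68 with the GC offset and the replicate block. It was 38, 81 and 12 with the replicate block and without replicates 1, 2 and 3, and ran from 0 to 81 over all fits with libraries or pairs left out. Of the regulators, 1 (GRHL3) passed with the replicate block, with DESeq2 and the block, and with the GC offset and the block, and of the endothelial markers 2 (PECAM1 and CDH5) did so, with 0 to 2 when libraries or pairs were left out. Among all genes 0.53% passed with the replicate block and 0.59% with the GC offset and the block. Of the keratins 0 to 1 passed in those fits, KRT16 with the replicate block and without replicate 2. The replicate block changed no other call in the lists. With the longest transcript in place of merged exons, chosen after seeing the data, the level per kilobase was 232 for JUP, 4.64 for PKP2 and 2.45 for PKP3. The differences in the 3 isoform ratios kept their sign under other pseudocounts and with libraries left out, where they ran from 0.12 to 0.63 for DSG3 to DSG2, 0.089 to 0.71 for DSC3 to DSC2 and -1.40 to -0.67 for PKP3 to PKP2. PKP3 had 44 to 138 counts per library and PKP1 had 0.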

Other observations

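Of the 17 tested genes tied to desmosome turnover and expression, only TP63, GRHL1, ADAM9, ADAM10 and ADAM17 had their highest value in 8000 Pa replicate 1. The same held for 30.5% of all genes. TP63, the transcription factor of basal epithelial cells, was at 2.74, 5.25 and 3.00 CPM on soft and 12.1, 5.60 and 5.08 CPM on stiff gels, lowest in 500 Pa replicate 1. Its paired log2 fold change was 1.03 (SE 0.40, adjusted p = 0.290 by edgeR), and its log2 ratios in the 3 pairs were 2.13, 0.09 and 0.75. ADAM10, a sheddase of cadherins, had log2 ratios of 1.68, 0.0047 and 0.29 in the pairs (paired adjusted p = 0.313 by edgeR). Those of ADAM9 were 0.93, -0.11 and -0.54. KLK5, a secreted kallikrein protease that cleaves desmosomal proteins in skin, was abundant, at 4646 ± 2498 CPM on soft and 2849 ± 883 CPM on stiff gels, and did not pass (paired adjusted p = 0.348 by edgeR). KLK7, a related protease, had 12 counts over the 6 libraries.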
